A study of Mus musculus with 12 samples.

Results

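The comparison described here sets hippocampus from mice that were stressed and given no compound against hippocampus from both other groups of the study. It used all 12 RNA sequencing libraries of the series, 4 per group, and 18600 of the 78298 genes listed, those with enough counts to test. All mice were male C57BL/6, 6 to 8 weeks old when bought, and had shown a sucrose preference at selection. The Control group received saline without stress. The Model group went through chronic unpredictable mild stress for 28 days, a series of changing daily stressors, and received saline. The Treatment group went through the same 28 days and was given poricoic acid A, a compound of the Poria cocos fungus, at 20 mg/kg by daily gavage for 14 days from day 15. Each value reported as the Model contrast is the Model mean minus the average of the Control and Treatment means on the log2 scale, so a gene stands out in it when stressed, untreated mice differ from unstressed mice and from stressed, treated mice together. No group received the compound without stress. The labels do not say which cages or litters the mice shared, so each p-value measures the spread between these libraries.

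Chronic stress paradigms are used in rodents to model features of depression, and the hippocampus is studied in them because it is rich in receptors for stress hormones and is part of the feedback on their release. Cells answer protein-folding load in the endoplasmic reticulum (ER) by raising chaperones of that compartment through the unfolded protein response, and answer misfolded protein in the cytosol by raising heat shock proteins. Both responses, along with synaptic, clock, sterol, immune and glial genes, were described here by lists of genes.

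Total estimated counts per library ran from 17083249 to 27479051, and the biological coefficient of variation, the typical spread of a gene between libraries of 1 group, was 10.7%. The libraries differed in how much neighbouring tissue they held. Summed levels, in counts scaled to library size (CPM, from here on), over 26 choroid plexus markers ran from 842 to 2666 in Control, from 708 to 1005 in Model and from 558 to 1660 in Treatment, with Control replicates 1 to 3 and Treatment replicate 2 the highest. Mean scores of thalamic and habenular markers, in log2 units around the mean of the 12 libraries, stood out in Control replicate 1 (1.45), Model replicate 2 (0.76) and Treatment replicate 2 (0.54). Mean scores of neocortical markers were 0.11 to 0.41 in Treatment and -0.43 to 0.02 in the other 8 libraries. The labels name Treatment replicates 2 and 3 by the numbers 1631 and 1636 and the other 10 libraries by numbers from 1868 to 1898, without saying what the numbers stand for. In whole tissue, fewer cells of a type and less RNA per cell cannot be told apart.

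Of the 18600 genes tested, 331 (1.78%) passed an adjusted p of 0.05 in the Model contrast by edgeR's quasi-likelihood test with Benjamini-Hochberg adjustment, to which every adjusted p here belongs. These were 158 genes higher in Model (0.849%) and 173 lower (0.93%). Over all genes tested, whether they passed or not, 8929 contrasts were positive (48%) and 9671 negative. These shares are the background for the counts of each list below. The differences were small, with a median size of 0.32 on the log2 scale, and 16 genes reached 1, of which 4 were higher and 12 lower. The 4 Model libraries lay outside the range of all 8 others in 528 of the genes tested (2.84%), above it in 284 (1.53%) and below it in 244 (1.31%). Of the 331 genes, 218 did so (1.17% of all genes tested), 104 above the range (0.559%) and 114 below it (0.613%). The count of 331 rested on single libraries: it was 6 without Model replicate 2, 33 without Model replicate 3 and 38 without Model replicate 4, and 348 without Model replicate 1. At an unadjusted p under 0.05, the count was 3356 genes (18%) with all libraries and 2643 without Model replicate 2. Adding a covariate for the choroid plexus score left 74 genes past the adjusted threshold, and a covariate for the neocortical score, added after the data were seen, left 7. The 6 genes that passed without Model replicate 2 were Cbfa2t3 and Trpc6, both higher in Model, and Rsrp1, Nrbp2, Lncppara and Rgs11, all lower. A test against a fold of 1.2 rather than against no change left 1 gene, Lncppara.

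Treatment minus Control, which uses a part of the data that the Model contrast leaves unused, passed in 19 of the 18600 genes (0.102%). Among the 331 genes of the Model contrast it passed in 2, Cbfa2t3 and Fosb. The median difference between Treatment and Control was 0.00 over the 158 genes higher in Model and 0.05 over the 173 lower genes. It was under 0.1 in size in 170 of the 331 genes (51.4%), beside 45.3% of all genes tested. At an unadjusted p under 0.05, 87 of the 331 genes (26.3%) differed between Treatment and Control, beside 13.9% of all genes. All genes are not a matched background for these shares. Median level was 64.9 CPM for the higher and 28.3 CPM for the lower genes, beside 13.3 CPM for all genes tested. The 2 contrasts also share each gene's estimate of spread.

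**Figure D1:**
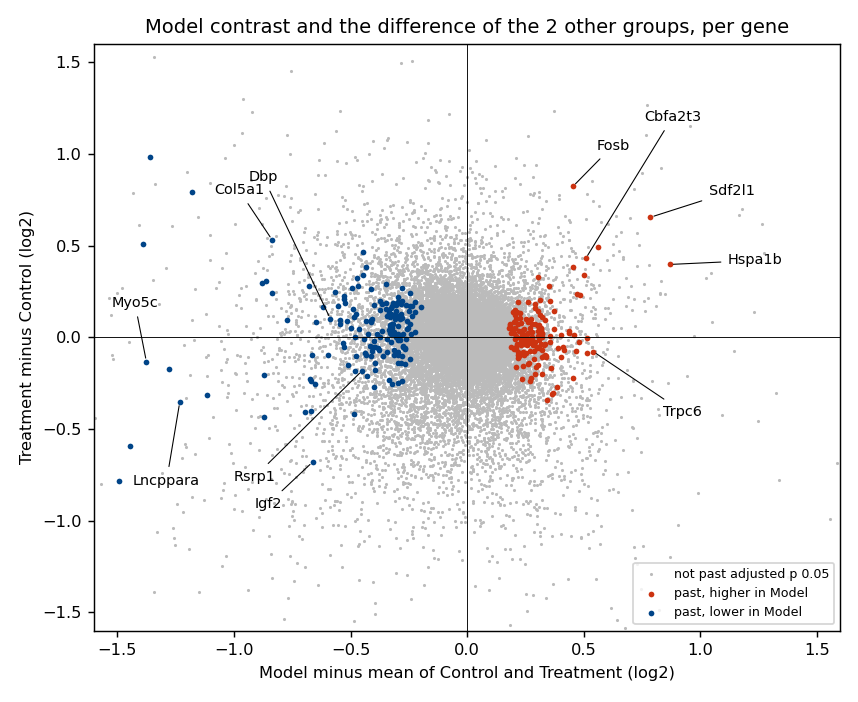
Model contrast (horizontal axis, log2) against Treatment minus Control (vertical axis, log2) for each gene tested. Red and blue points are genes past an adjusted p of 0.05 that were higher or lower in Model, grey points all others, and 65 genes beyond 1.6 on an axis, 7 of them past the threshold, are not drawn. Trpc6 and Myo5c lie close to the horizontal line, where Control and Treatment are alike, whereas Fosb and Sdf2l1 lie well above it.

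Chaperones of the ER were the gene group with the most members higher in Model after the heat shock proteins. Of 35 measured members, 7 rose and none fell, with a median contrast of 0.17, beside -0.01 over all genes tested. Those that rose were Sdf2l1, Hspa5, Manf, Pdia4, Hsp90b1, Hspa13 and Sel1l. The group's median was 0.23 for Model minus Control and 0.13 for Model minus Treatment, and Treatment minus Control was 0.12. By these medians the Treatment group lay between, but not every Treatment library did. The mean score of Treatment replicate 3 (0.15) was above those of Model replicates 1 to 3 (0.04 to 0.13).

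Hspa5, which encodes BiP, the central Hsp70 chaperone of the ER, was 189, 193, 211 and 174 CPM in the Control libraries, 270.5, 288, 334 and 448 in Model and 275, 243, 345 and 218 in Treatment. Each Model library was above each Control library, but Treatment replicates 1 and 3 were within the Model range. Its contrast was 0.56 ± 0.12 (SE, adjusted p = 0.033). Sdf2l1, a partner of BiP, was 6.02, 5.86, 7.57 and 5.15 CPM in the Control libraries, 10.2, 10.03, 12.96 and 19.6 in Model and 8.97, 8.72, 12.3 and 8.57 in Treatment, and Treatment replicate 3 again reached the Model values. Its contrast was 0.79 ± 0.17 (SE, adjusted p = 0.029), made up of 1.11 against Control and 0.46 against Treatment. Hsp90b1, the Hsp90 of the ER (GRP94), was 296, 277, 313 and 271 CPM in the Control libraries, 386, 375, 384 and 441 in Model and 346, 312, 363 and 308 in Treatment. Here the lowest Model library was above the highest of the other 8, and the contrast was 0.36 ± 0.06 (SE, adjusted p = 0.015). Model lay above every other library in 2 of the 35 measured members, Hsp90b1 among them, beside 1.53% of all genes tested. Most of the 7 members that rose therefore did not stand apart from every other library. The remaining members were Manf, a small secreted protein of stressed ER (0.50, adjusted p = 0.027), Pdia4, a disulfide isomerase (0.49, adjusted p = 0.032), Hspa13, an Hsp70 relative (0.27, adjusted p = 0.038), and Sel1l, a part of the machinery that removes misfolded proteins (0.22, adjusted p = 0.030).

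The unfolded protein response acts on many of these genes through the ER stress element of their promoters. The element's letters, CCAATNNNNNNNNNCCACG, were searched on both strands in the 250 bases before each RefSeq start (GRCm38.p6), and were present in 10 of the 29 measured members that have a promoter entry (34.5%), against 35 of 27025 genes in all (0.13%). Of 5 promoters of members that rose, 2 held the element (40%), those of Hspa5 and Hsp90b1. The list was made of genes of this response, so the share over its members says nothing about the Model contrast. The heat shock element was searched as GAANNTTCNNGAA, on both strands. It was in 2 of 22 members of the heat shock protein list (9.09%), Hspd1 and Hspe1, against 139 of 27025 genes (0.514%), and of 7 promoters of members that rose it was in 1, that of Hspd1. The sequences below belong to chaperone genes that rose, and the capitals mark matches to either element. Hsp90b1 and Hspd1 were added because they hold a match, so the share of sequences with capitals is higher here than over all members that rose. They run 5′ to 3′ along the gene's strand and end at or before the base ahead of the start.
Hspa5, chr2:34771970-34772089 (plus strand): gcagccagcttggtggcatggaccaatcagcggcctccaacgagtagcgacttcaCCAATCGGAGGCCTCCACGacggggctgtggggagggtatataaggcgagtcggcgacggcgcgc
Hsp90b1, chr10:86705528-86705661 (minus strand): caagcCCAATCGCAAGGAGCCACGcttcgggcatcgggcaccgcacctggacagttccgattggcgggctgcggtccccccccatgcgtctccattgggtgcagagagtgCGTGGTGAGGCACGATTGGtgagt
Sdf2l1, chr16:17132384-17132503 (minus strand): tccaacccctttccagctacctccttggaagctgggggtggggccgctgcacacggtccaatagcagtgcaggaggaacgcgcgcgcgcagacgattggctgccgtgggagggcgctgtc
Hspd1, chr1:55088008-55088127 (minus strand): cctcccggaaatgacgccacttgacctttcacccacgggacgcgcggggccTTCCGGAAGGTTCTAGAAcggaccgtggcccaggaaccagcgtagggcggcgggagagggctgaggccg
Hspa1b, chr17:34959239-34959358 (minus strand): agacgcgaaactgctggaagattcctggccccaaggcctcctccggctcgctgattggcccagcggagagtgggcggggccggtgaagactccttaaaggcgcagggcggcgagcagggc
Hsph1, chr5:149636337-149636456 (minus strand): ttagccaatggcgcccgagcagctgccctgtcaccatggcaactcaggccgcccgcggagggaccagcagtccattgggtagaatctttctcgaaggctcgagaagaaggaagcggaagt
Stip1, chr19:7040027-7040146 (minus strand): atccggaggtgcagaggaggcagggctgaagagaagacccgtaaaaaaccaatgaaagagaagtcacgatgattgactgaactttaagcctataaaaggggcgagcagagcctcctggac
The match of Hspa5 lay 65 to 47 bases before the start. Hsp90b1 held 2 matches, 212 to 194 bases before the start and, on the opposite strand, 107 to 89 bases before it. The capitals of Hspd1, which encodes the mitochondrial chaperonin Hsp60, cover 2 overlapping matches to the heat shock element. The windows of Sdf2l1, Hspa1b, Hsph1 and Stip1 hold no capitals, which says only that these exact letters are not in them. Among all genes that passed, the ER stress element was in 2 of 123 higher genes with a promoter entry (1.63%), again Hspa5 and Hsp90b1, and in 0 of 137 lower genes. It was in 0.17% of tested genes with an entry. Both higher genes with the element are ER members, so they repeat the count above. Another element of the unfolded protein response, TGACGTGG, was in 0 of the 123 higher genes, beside 0.877% of tested genes. It was in 0 of the 5 promoters of ER members that rose. The AP-1 site, TGANTCA, was in 4.88% of higher genes, beside 5.5% of tested genes, and in 2 of those 5 promoters.

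Of 28 measured heat shock proteins and co-chaperones of the cytosol and mitochondria, 9 rose and none fell, with a median contrast of 0.23. Hsp90aa1, the inducible cytosolic Hsp90, was 1119, 995, 1113 and 1077 CPM in the Control libraries, 1244, 1358, 1223 and 1385 in Model and 1056, 935, 1101 and 1058 in Treatment. All 4 Model libraries were above all 8 others, and the contrast was 0.30 ± 0.05 (SE, adjusted p = 0.020), with Treatment minus Control at -0.05. Stip1, the adaptor that joins Hsp70 to Hsp90, was 128, 121, 128 and 119.98 CPM in the Control libraries, 180.2, 166, 161 and 179.7 in Model and 151, 144, 174 and 154 in Treatment, and Treatment replicate 3 lay among the Model libraries. Its contrast was 0.30 ± 0.05 (SE, adjusted p = 0.020). Stip1 differed by 0.47 from Control and by 0.14 from Treatment (adjusted p = 0.248), and Treatment minus Control was 0.33 (adjusted p = 0.066). Hspa1b, a strongly heat-inducible Hsp70, had the largest contrast of the group. It was 11.4, 12.7, 13.8 and 10.5 CPM in the Control libraries, 20.99, 19.6, 22.7 and 37.6 in Model and 16.97, 10.6, 23.4 and 12.8 in Treatment, with Model replicate 4 far above the rest and Treatment replicate 3 inside the Model range. The contrast was 0.87 ± 0.19 (SE, adjusted p = 0.031). Hspa1a and Hspa1b are near-identical copies, so reads may be split between them and the Hspa1b level is uncertain. The others were Hsph1, an exchange factor for Hsp70 (0.35), Dnaja1 (0.30) and Dnajb4 (0.24), both Hsp40 co-chaperones, Hspa8, the constitutive Hsp70 (0.29), Hspa4 (0.20) and Hspd1 (0.20). Of these 9 genes, Model was above every other library in Hsp90aa1, Dnaja1, Dnajb4, Hspd1 and Hspa4.

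All 8 subunits of the TRiC chaperonin, which folds actin and tubulin, had positive contrasts, with a list median of 0.14, and none of the 8 passed, with 7 at an unadjusted p under 0.05 and 1 called by DESeq2. The cold-inducible RNA-binding protein Cirbp went the other way, with 51.4, 54.6, 48.6 and 56.1 CPM in the Control libraries, 40.1, 38.7, 40.7 and 34.8 in Model and 42.4, 44.5, 40.2 and 52.1 in Treatment and a contrast of -0.33 ± 0.07 (SE, adjusted p = 0.030). Its Model libraries overlapped those of Treatment.

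The chaperone calls depended on which Model libraries were in the fit. Without Model replicate 4, which had the highest mean scores of the ER list (0.34) and of the heat shock list (0.27), no member of either list passed in edgeR, and the medians were 0.15 and 0.20. Without Model replicate 2, no member passed either, with medians of 0.18 and 0.23. At an unadjusted p under 0.05, 19 ER members were higher with all libraries, 19 without Model replicate 2 and 17 without Model replicate 4, and the same counts for the heat shock list were 19, 19 and 17. DESeq2, with all libraries, called 16 ER members and 17 heat shock members. Treatment replicate 3 had scores of 0.15 on both lists. Model replicates 1 to 3 had lower ones, 0.04 to 0.13 on the ER list and 0.08 to 0.09 on the heat shock list. The Control scores ran from -0.19 to -0.14 on the ER list. When a choroid plexus covariate was added, 2 ER members and no heat shock member passed, and with a neocortical one none of either, with 20, 16, 16 and 17 members higher at an unadjusted p under 0.05 in these 4 cases. Choroid plexus scores were -0.55 to -0.07 in Model and -0.80 to 0.42 in Treatment. In Control they were -0.25 in replicate 4 and 0.73 to 1.09 in the others, with ER scores of -0.19 and of -0.17 to -0.14. Control replicate 4 is 1 library. Beyond the covariate fit, the part of choroid plexus carry-over in the chaperone values was not tested.

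**Figure D2:**
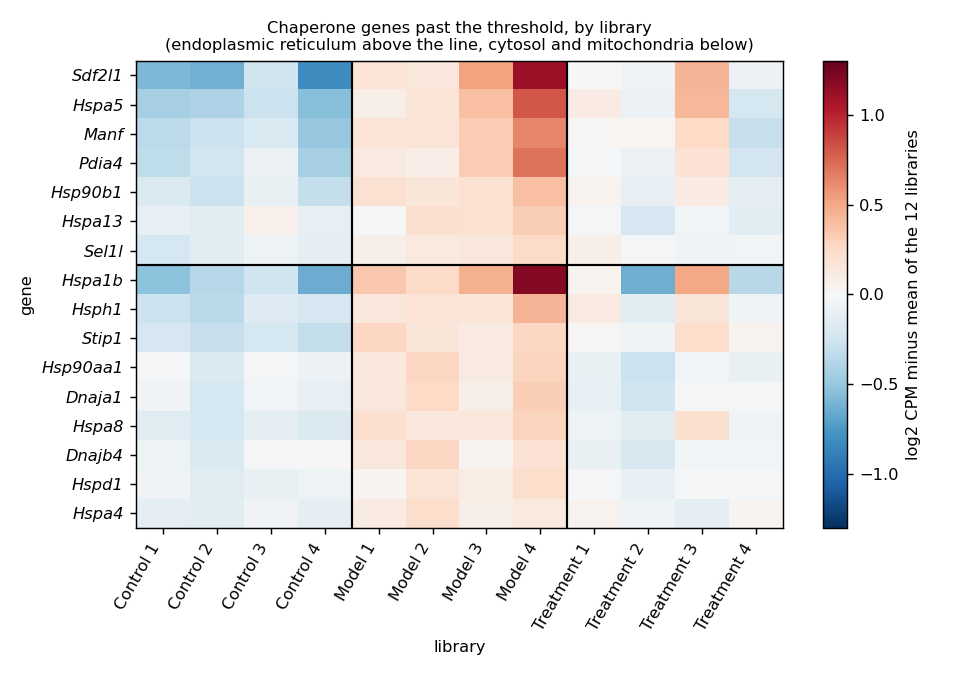
The 16 chaperone genes that rose, in each of the 12 libraries, coloured by log2 CPM minus the gene's mean over the libraries. The Model columns are above the mean in nearly every row, most in replicate 4, and Treatment replicate 3 is above the mean for Sdf2l1, Hspa5 and Hspa1b.

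Among the genes whose 4 Model libraries lay above all 8 others, Cbfa2t3 had the smallest p-value. Cbfa2t3 encodes a transcriptional corepressor of the ETO family. It was 27.5, 28.2, 31.7 and 29.7 CPM in the Control libraries, 45.99, 49.3, 49.5 and 48.3 in Model and 40.1, 37.9, 39.1 and 40.5 in Treatment, and the 3 groups did not overlap. The contrast was 0.51 ± 0.05 (SE, adjusted p = 0.000528), a 1.42-fold higher level, and Treatment was also above Control by 0.43 (adjusted p = 0.017), so the Treatment value lay between those of the other groups. Trpc6, a cation channel opened downstream of receptors and enriched in dentate granule cells, was 16.5, 16.4, 20.5 and 16.1 CPM in the Control libraries, 24.2, 22.2, 25.96 and 25.5 in Model and 17.9, 17.1, 16.9 and 13.8 in Treatment. All Model libraries exceeded the highest other library, Control replicate 3, and the contrast was 0.54 ± 0.08 (SE, adjusted p = 0.00923). Treatment and Control differed by -0.08 in Trpc6, with a 95% interval of -0.29 to 0.13.

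Single genes of vesicle release and synaptic contact were among the higher genes, which were 0.849% of all genes tested. Doc2b, a calcium sensor of vesicle fusion, was 89.8, 91.1, 101 and 89.2 CPM in the Control libraries, 111, 119.8, 147 and 119.9 in Model and 80.2, 87.4, 98.3 and 85.6 in Treatment, with no overlap between Model and the rest. Its contrast was 0.47 ± 0.07 (SE, adjusted p = 0.00923). Nptx1, a pentraxin that gathers AMPA receptors at synapses, was 542, 557, 642 and 613 CPM in the Control libraries, 708, 760.02, 813 and 699 in Model and 591, 595, 629 and 614 in Treatment, again with all Model libraries on top. Its contrast was 0.32 ± 0.06 (SE, adjusted p = 0.017). Nptx1 was the single member of 36 glutamatergic synapse genes to pass. Of that list 28 had positive contrasts, with a list median of 0.08, 8 were higher and 0 lower at an unadjusted p under 0.05, and DESeq2 called 5. Its scores were 0.03 to 0.11 in Model, -0.07 to -0.02 in Control and -0.07 to 0.03 in Treatment. Doc2b and Syt4 (0.22, adjusted p = 0.043) were the 2 of 26 presynaptic genes to pass. In that list 13 contrasts were positive and 13 negative, with a median of 0.005. None of 30 GABAergic genes passed, where 6 were higher and 1 lower at an unadjusted p under 0.05 and DESeq2 called 3. Rab8b, a small GTPase of membrane traffic, was 54.4, 52.6, 63.7 and 57.9 CPM in the Control libraries, 69.4, 75.03, 77.3 and 81.2 in Model and 60.7, 50.1, 66.9 and 53.1 in Treatment, and its contrast was 0.40 ± 0.07 (SE, adjusted p = 0.022). Slc5a3, the sodium-coupled myo-inositol transporter, was 33.8, 39.4, 35.6 and 30.2 CPM in the Control libraries, 46.7, 47.6, 43.8 and 51.8 in Model and 35.7, 35.3, 41.1 and 29.6 in Treatment. Its contrast was 0.44 ± 0.08 (SE, adjusted p = 0.022), and as the gene overlaps Mrps6, reads of the pair may not be told apart. Both genes had Model above every other library, as the rule that named them required, and neither passed without Model replicate 2, 3 or 4. Mkks, a chaperonin-like protein of the cilium base (0.47, adjusted p = 0.020), the adaptor Ston1 (0.45, adjusted p = 0.043), and Mdga1, an adhesion protein that binds neuroligins (0.37, adjusted p = 0.027), were also higher, as were Ccnjl, Cecr2 and the noncoding RNA Dubr.

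Markers of the principal neurons of the hippocampus had mostly positive contrasts. Of 21 dentate granule cell markers, 19 had positive contrasts, with a list median of 0.18, and 3 rose, Trpc6, the calcium buffer Calb1 (0.30, adjusted p = 0.027) and Il16 (0.38, adjusted p = 0.032). Medians were 0.18 over 16 CA1 markers, of which Gpr161 rose (0.51, adjusted p = 0.027), and 0.15 over 19 CA2 and CA3 markers, of which none passed, where 7 were higher and 1 lower at an unadjusted p under 0.05 and DESeq2 called 4. The dentate scores were -0.19 to -0.10 in Treatment, -0.08 to 0.14 in Control and 0.06 to 0.25 in Model, highest in Model replicate 3. The dentate median was 0.07 for Model minus Control and 0.30 for Model minus Treatment. Bcl11b, a transcription factor of granule cells and deep cortical neurons, was 114, 115, 140.3 and 142 CPM in the Control libraries, 144, 163, 197 and 168 in Model and 130.5, 124, 137 and 137 in Treatment, with a contrast of 0.37 ± 0.08 (SE, adjusted p = 0.030). It was the 1 member of 20 neocortical markers to rise. Of these 14 had negative contrasts, with a list median of -0.15, Rspo1 fell, and 2 were higher and 5 lower at an unadjusted p under 0.05. The neocortical median was 0.04 for Model minus Control and -0.35 for Model minus Treatment. Neurod1, a factor of neuronal differentiation, was 24.5, 20.6, 25.7 and 24.3 CPM in the Control libraries, 32.5, 25.9, 30.6 and 29.5 in Model and 22.6, 24.3, 22.8 and 25.2 in Treatment, with a contrast of 0.32 ± 0.07 (SE, adjusted p = 0.033), and was the only one of 19 adult neurogenesis genes to pass. Whether the share of granule cells in the dissected tissue moved with these genes was not tested.

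**Figure D3:**
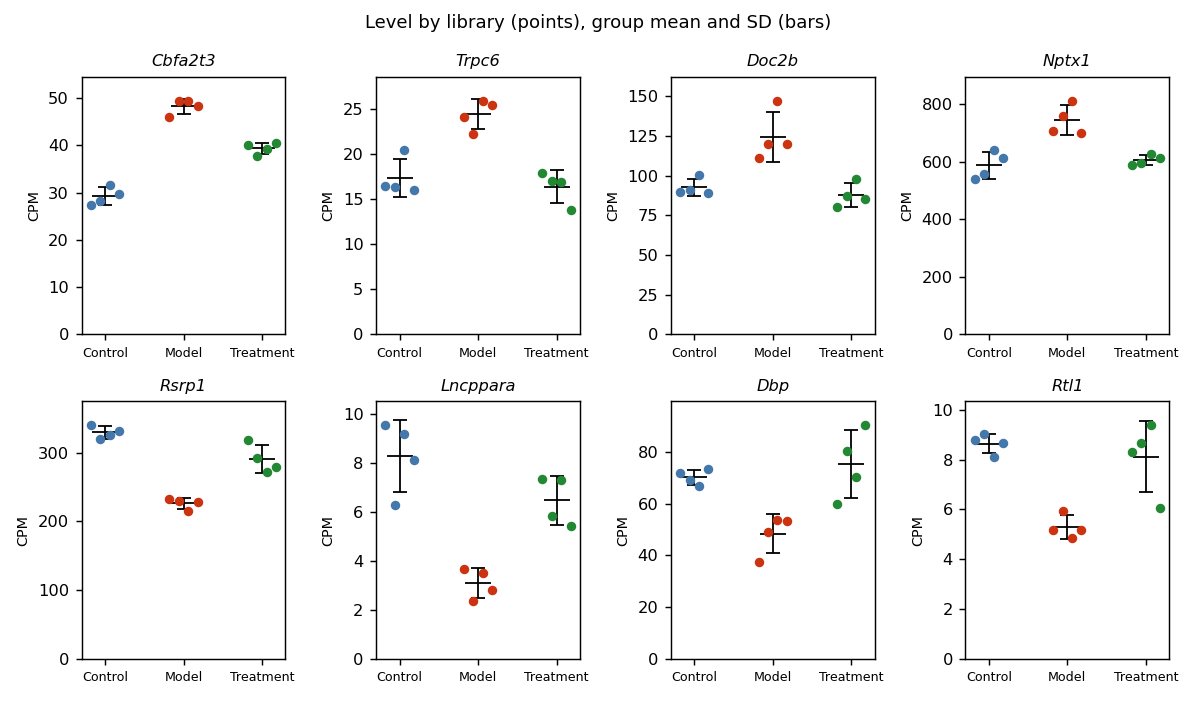
CPM of 8 genes by library (points) with group mean and SD (bars), 4 libraries per group, each axis from 0. Cbfa2t3, Trpc6, Doc2b and Nptx1 are higher in all Model libraries than in all others, and Rsrp1, Lncppara, Dbp and Rtl1 are lower in all Model libraries than in all others.

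Of the genes lower in Model, Rsrp1 had the smallest p-value. It encodes an arginine- and serine-rich protein, and was 341, 319, 326 and 332 CPM in the Control libraries, 233, 229.9, 215 and 228 in Model and 319, 292, 273 and 279 in Treatment. The Model libraries fell within a narrow band below all others, and the contrast was -0.45 ± 0.05 (SE, adjusted p = 0.00114), a 1.37-fold lower level. With Srsf5, an SR protein of splicing (-0.22, adjusted p = 0.040), Rsrp1 was 1 of 2 among 31 splicing factors to fall, and the median of that list was -0.04. Snapc4, a subunit of the complex that starts transcription of small nuclear RNAs, was 51.6, 46.8, 44.3 and 47.8 CPM in the Control libraries, 39.1, 32.5, 33.3 and 31.5 in Model and 51.6, 50.1, 41.97 and 47.3 in Treatment. Its contrast was -0.48 ± 0.07 (SE, adjusted p = 0.00923) and Treatment minus Control was 0.00. Snapc4 was named by a rule that picks genes with a small Treatment minus Control, so that value is not a separate finding. Rgs11, which speeds the shut-off of G proteins, was 35.8, 31.2, 28.5 and 34.6 CPM in the Control libraries, 23.8, 24.3, 20.6 and 20.3 in Model and 34.9, 33.1, 29.04 and 30.4 in Treatment, with a contrast of -0.53 ± 0.08 (SE, adjusted p = 0.00923). For both genes the lowest library of Control and Treatment lay above the highest Model library, as the rule that named them required.

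Lncppara, a long noncoding RNA, was 9.56, 6.297, 9.198 and 8.14 CPM in the Control libraries, 3.69, 2.37, 3.495 and 2.83 in Model and 7.33, 5.83, 7.32 and 5.43 in Treatment, with a contrast of -1.23 ± 0.16 (SE, adjusted p = 0.00367), a 2.35-fold lower level. It passed in all 27 alternative settings tried. Myo5c, an unconventional myosin, was 4.903, 4.45, 3.901 and 2.49 CPM in the Control libraries, 1.47, 1.598, 1.35 and 1.37 in Model and 4.56, 3.65, 2.47 and 3.66 in Treatment, with a contrast of -1.38 ± 0.21 (SE, adjusted p = 0.00923). Both are low genes of a few CPM, and in both every Model library was below every other library, as the rule that named them required. Coro6, an actin-binding coronin, was 33.2, 29.2, 20.7 and 25.2 CPM in the Control libraries, 17.2, 16.9, 11.7 and 20.3 in Model and 43.6, 33.9, 22.9 and 28.1 in Treatment, with a contrast of -0.83 ± 0.17 (SE, adjusted p = 0.027), and Model replicate 4 lay just under Control replicate 3. Other lower genes with Model below every library were Col26a1 (-0.88), the noncoding RNA Atcayos (-0.87), the mechanically gated channel Piezo1 (-0.65), Capn6 (-0.59), Ankrd24 (-0.55) and Plcxd1 (-0.54). The strand of the libraries is not given in the sources used here, so Atcayos may not be told apart from the gene it is antisense to.

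Of 19 measured genes of the circadian clock, 2 fell and none rose. Dbp, a transcription factor driven by the clock, was 71.7, 68.9, 66.7 and 73.3 CPM in the Control libraries, 37.6, 48.9, 53.6 and 53.4 in Model and 59.9, 80.2, 70.2 and 90.4 in Treatment, and the contrast was -0.59 ± 0.10 (SE, adjusted p = 0.019). Dbp overlaps Sphk2, so some reads may belong to that gene. Ciart, a repressor within the clock, had a contrast of -0.87 (adjusted p = 0.033). The other 17 measured clock genes did not pass, and the list's median was -0.07. The labels give no hour of tissue collection, and its part in the result was not tested.

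Of 25 sterol genes, 24 had negative contrasts, beside 9671 of the 18600 genes tested. The list median was -0.11, and beside 0.93% of all genes tested, 3 members of the list fell. Among these, Lss, the lanosterol synthase, was 43.3, 45.6, 39.6 and 44.3 CPM in the Control libraries, 32.2, 32.9, 31.9 and 34.1 in Model and 37.9, 38.97, 31.9 and 37.96 in Treatment. Its contrast was -0.28 ± 0.06 (SE, adjusted p = 0.032). Tm7sf2, a sterol reductase, was 15.8, 17.7, 13.4 and 15.1 CPM in the Control libraries, 11.96, 11.5, 10.3 and 12.7 in Model and 13.7, 15.1, 17.2 and 14.002 in Treatment, with a contrast of -0.39 ± 0.09 (SE, adjusted p = 0.036). The sterol score was -0.18 to -0.02 in Model and -0.05 to 0.16 elsewhere.

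Rtl1, a protein-coding gene expressed from the paternal allele of the Dlk1-Dio3 imprinted cluster of chromosome 12, was 8.79, 9.01, 8.09 and 8.67 CPM in the Control libraries, 5.16, 5.95, 4.85 and 5.19 in Model and 8.31, 8.67, 9.39 and 6.07 in Treatment. Each Model library was below each other library, as the rule that named the gene required, and the contrast was -0.66 ± 0.12 (SE, adjusted p = 0.017). As the strand of the libraries is not given, reads from the opposite strand of Rtl1 may not be told apart from its own. Other genes of that cluster were looked up after this value was seen. Mirg, a noncoding RNA of the maternal allele, had a contrast of -0.48 (adjusted p = 0.033), and Begain, next to the cluster, -0.20 (adjusted p = 0.035). Meg3, the abundant maternal noncoding RNA, was 4720.4, 4992, 4377 and 4771 CPM in the Control libraries, 4118, 3354, 2987 and 3163 in Model and 5286, 5231, 3514 and 3833 in Treatment. Its contrast was -0.43 ± 0.11 (SE, adjusted p = 0.054) and did not pass, with Model replicate 1 above Treatment replicates 3 and 4. Dlk1 (-0.18), Rian (-0.10) and Dio3 (-0.06) did not pass.

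Of 13 mitochondrially encoded messages 12 had negative contrasts, with a list median of -0.13, and 1 fell. mt-Nd5, a subunit of respiratory complex I, was 7051, 7004, 6847 and 6968 CPM in the Control libraries, 5927, 5693, 5676 and 5338 in Model and 7042, 6701, 6156 and 6952 in Treatment, with all Model libraries below the rest. Its contrast was -0.27 ± 0.04 (SE, adjusted p = 0.012), and as it overlaps mt-Nd6 on the other strand the reads of the pair may not be told apart. The 84 ribosomal protein genes had a median of -0.02 and none passed, with 2 lower at an unadjusted p under 0.05 and none called by DESeq2.

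Genes often measured in stress and depression studies gave few calls. Of 16 such genes with enough counts, Htr1a alone passed. Htr1a, the serotonin 1A receptor, was 29.9, 30.1, 33.1 and 33.8 CPM in the Control libraries, 41.2, 40.7, 39.2 and 44.1 in Model and 35.02, 35.4, 38.3 and 35.1 in Treatment, with Model above every library of both other groups. Its contrast was 0.29 ± 0.05 (SE, adjusted p = 0.022), made up of 0.38 against Control and 0.20 against Treatment. Fkbp5, a co-chaperone that glucocorticoids induce, was 47.5, 56.4, 64.4 and 59.1 CPM in the Control libraries, 63.8, 66.2, 73.9 and 62.2 in Model and 48.97, 55.2, 54.997 and 51.5 in Treatment, with a contrast of 0.28 ± 0.07 (SE, adjusted p = 0.058), which did not pass. It passed in 7 alternatives, with values from 0.28 to 0.32, among them DESeq2 (0.29, adjusted p = 0.0070), no filter (0.29, adjusted p = 0.0010), GC and length trends removed (0.30, adjusted p = 0.025) and the replicate number as a block (0.28, adjusted p = 0.027). None of 21 glucocorticoid receptor targets passed, and their median was -0.01. At an unadjusted p under 0.05, 4 of them were higher and 4 lower, and DESeq2 called 2. Contrasts were 0.08 for the growth factor Bdnf (adjusted p = 0.757), 0.06 for the glucocorticoid receptor Nr3c1 (adjusted p = 0.690), -0.17 for the activity gene Arc (adjusted p = 0.403) and -0.28 for the NF-kB inhibitor Nfkbia (adjusted p = 0.107). Il1b and Tnf had too few counts to test. The dopamine receptor Drd5 rose as well (0.51, adjusted p = 0.035), making 2 of 22 monoamine genes.

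Fosb, an activity-induced transcription factor and the only one of 28 immediate early genes to pass, shows how a gene can pass without Model standing apart. It was 4.18, 5.899, 5.82 and 5.68 CPM in the Control libraries, 8.81, 10.96, 9.32 and 10.3 in Model and 9.95, 10.8, 8.53 and 8.96 in Treatment, so Model and Treatment overlapped fully and both lay above Control. Its contrast was 0.45 ± 0.11 (SE, adjusted p = 0.041), made up of 0.87 against Control and 0.04 against Treatment. Treatment minus Control was 0.82 (adjusted p = 0.027). Over the 28 genes, 6 were higher and 6 lower in the Model contrast at an unadjusted p under 0.05, and DESeq2 called 7. Treatment minus Control passed in 4 of them, Fosb included, beside 0.102% of all genes tested, and its list median was 0.20.

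Several lists of markers of non-neuronal cells had mostly negative contrasts, and few members passed. Ependymal markers were split, with 9 positive and 11 negative contrasts and a median of -0.02. Astrocyte markers were split as well, with 10 positive and 10 negative. Of 23 microglial markers, 22 were negative, with a list median of -0.14 and none passed, where 10 were lower and 1 higher at an unadjusted p under 0.05 and DESeq2 called 1. None of 20 antigen presentation genes (median -0.27), 29 interferon-stimulated genes (-0.10) or 15 pericyte and smooth muscle markers (-0.23) passed. In these 3 lists 7, 2 and 7 genes were lower at an unadjusted p under 0.05, and DESeq2 called 2, 0 and 1. Single libraries stood apart in the scores of both immune lists. Antigen presentation was at 0.31 and 0.33 in Treatment replicates 2 and 3, beside -0.07 in both other Treatment libraries, -0.03 to 0.10 in Control and -0.22 to -0.07 in Model. The interferon score was 0.44 in Treatment replicate 3 and 0.15 in Model replicate 4, beside -0.24 to 0.14 in the other 10. Among 24 endothelial markers, Slco1a4, an organic anion transporter of brain vessels, and Itm2a (-0.25, adjusted p = 0.038) fell. Slco1a4 was 40.8, 41.5, 40.2 and 39.04 CPM in the Control libraries, 33.8, 29.6, 33.2 and 37.8 in Model and 47.7, 47.2, 40.3 and 41.6 in Treatment, with a contrast of -0.33 ± 0.07 (SE, adjusted p = 0.027). The endothelial scores were -0.12 to -0.03 in Model, -0.13 to -0.01 in Control and 0.05 to 0.29 in Treatment. The endothelial median was 0.01 for Model minus Control and -0.24 for Model minus Treatment. Opalin, a membrane protein of myelinating cells (-0.30, adjusted p = 0.036), was 1 of 27 myelin markers to fall. The alarmin Il33 was 46.4, 52.1, 51.1 and 46.5 CPM in the Control libraries, 34.6, 41.98, 35.8 and 42.9 in Model and 45.2, 48.1, 46.2 and 45.8 in Treatment, with a contrast of -0.30 ± 0.07 (SE, adjusted p = 0.032), and the NF-kB subunit Rela had -0.30 (adjusted p = 0.049). These were 2 of 20 cytokine and NF-kB genes. None of 20 astrocyte markers passed, their median was -0.00, 2 were higher and 3 lower at an unadjusted p under 0.05, and DESeq2 called 3.

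Of 35 extracellular matrix genes 4 fell and none rose. These were the collagen genes Col5a1 (-0.84), Col5a2 (-0.48), Col4a5 (-0.48) and Col4a2 (-0.32). Igf2, a growth factor of choroid plexus and meninges, was 128, 149, 165 and 82.7 CPM in the Control libraries, 73.8, 60.5, 63.7 and 63.4 in Model and 58.5, 104, 89.2 and 75.5 in Treatment, with a contrast of -0.66 ± 0.16 (SE, adjusted p = 0.048) made up of -1.002 against Control and -0.32 against Treatment. All 26 choroid plexus markers had negative contrasts, with a list median of -0.62. None passed, 18 were lower at an unadjusted p under 0.05, and DESeq2 called 2. Their median was -1.17 for Model minus Control and -1.0003 for Treatment minus Control. Without Control replicate 1 the adjusted p of Igf2 did not pass, as in 10 of the 12 fits that left out a library. The part of choroid plexus carry-over in these values was not tested.

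Of the 4 largest positive contrasts among genes that passed, 3 belonged to genes known from the cerebellum, named after their values were seen. Gabra6, a GABA receptor subunit of cerebellar granule cells, was 1.796, 0.579, 0 and 0.368 CPM in the Control libraries, 10.01, 2.699, 0.0466 and 2.32 in Model and 0, 0.0507, 0.0505 and 0.0862 in Treatment. Cbln3, a secreted cerebellin, was 6.41, 2.14, 0.524 and 1.35 CPM in the Control libraries, 27.3, 7.22, 0.792 and 3.52 in Model and 0.513, 0.7095, 0.505 and 0.5601 in Treatment. Both were led by Model replicate 1 and were low in Model replicate 3, and Control replicate 1 was the highest of the other 8 libraries. Ppp1r17, a marker of Purkinje cells, was 1.602, 0.651, 0.175 and 0.491 CPM in the Control libraries, 4.71, 1.87, 0.559 and 0.429 in Model and 0.0513, 0.152, 0.202 and 0.0862 in Treatment. The adjusted p was 0.027 for Gabra6, 0.033 for Cbln3 and 0.040 for Ppp1r17, and no fold is given because several libraries hold a few counts or none. The part of cerebellar tissue in these 3 values was not tested.

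**Figure D4:**
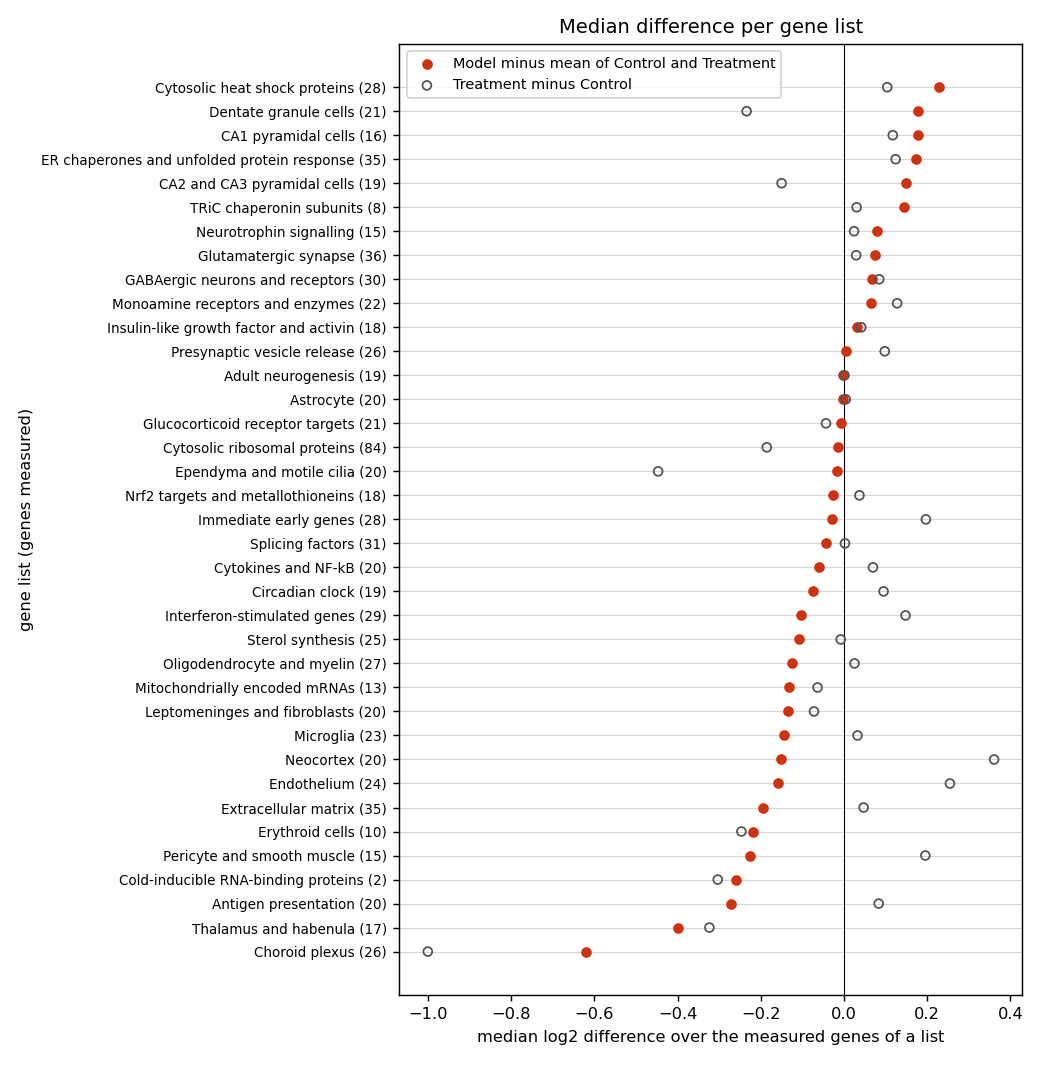
Median log2 difference over the measured genes of each of the 37 lists, for the Model contrast (filled red) and for Treatment minus Control (open). Both chaperone lists and the markers of principal neurons lie to the right of 0 and choroid plexus farthest to the left, and choroid plexus and ependyma have the lowest medians of Treatment minus Control.

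The direction of a call went with base composition. Median GC content of the longest annotated transcript was 46.5% for the higher genes, 55.8% for the lower genes and 49.4% for all genes tested. Of genes under 40% GC, 1.16% rose and 0.414% fell, whereas of genes at 60% or more none rose and 2.58% fell. The libraries differed in this respect. The median of genes at 55% GC or more, minus that of genes under 45%, in log2 CPM around each gene's mean, was 0.12 to 0.24 in Treatment replicates 2 to 4 and -0.06 in Treatment replicate 1, -0.16 to -0.01 in Model and -0.09 to 0.05 in Control. At 60% GC or more, the median difference over genes was -0.16 for Model minus Treatment and -0.04 for Model minus Control. Higher genes were also longer, with a median transcript length of 4538.5 bases beside 3505 for lower genes and 3183 for all. With each library's GC and length trends removed, an alternative added after the data were seen, 510 genes passed, 305 higher and 205 lower, and 251 of the 331 genes were among them. Median GC was then 52.0% for higher and 50.8% for lower genes, and 15 ER chaperones and 12 heat shock proteins passed, all higher. Noncoding RNAs were 3 of the 158 higher and 14 of the 173 lower genes (8.09%), beside 16.3% of all genes tested.

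**Figure D5:**
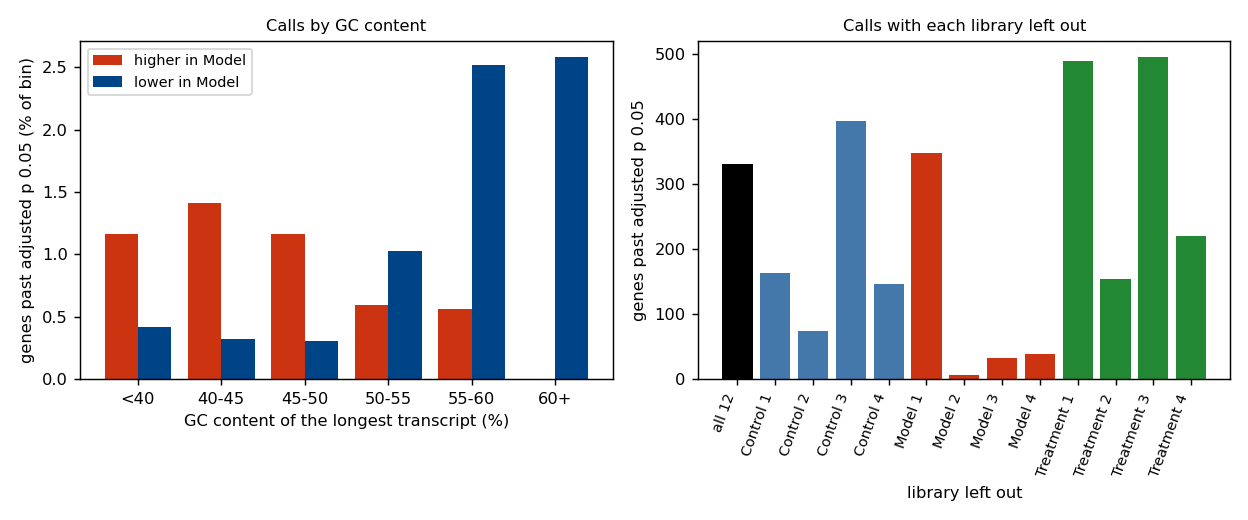
Left, percentage of the tested genes of each GC bin that passed, higher (red) or lower (blue) in Model. Right, number of genes past an adjusted p of 0.05 with all 12 libraries (black, 331 genes) and with each library left out, which ran from 6 without Model replicate 2 to 494 without Treatment replicate 3.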

How the data were processed

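Poly(A) RNA of hippocampus from 12 mice, 4 per group, was sequenced. The submitters' processing notes list STAR 2.7.10a, Salmon 1.10.1, cutadapt 3.4, Trim Galore 0.6.7 and FastQC 0.12.1, with no roles. The deposited table holds estimated counts and FPKM per gene. Of the nonzero estimated counts 28.8% were not whole (tolerance 1e-06), and they were rounded here. The FPKM values, deposited by the authors, entered alternatives only, as log2(FPKM + 1) or log2(FPKM + 0.1). The annotation release and the strand setting are not given in the sources used here. Groups were taken from the labels. Genes were filtered with filterByExpr, scaled by TMM and fitted with 1 mean per group in edgeR 4.0.16 (R 4.3.3), whose quasi-likelihood test gave each adjusted p (Benjamini-Hochberg, 18600 genes). The CPM printed use TMM-scaled library sizes. List scores are mean log2 CPM of members, centred on the 12 libraries. DESeq2 1.42.0, limma 3.58.1, other filters, scalings, covariates and left-out libraries were alternatives. The fit was checked on simulated counts. Transcript length and GC were those of each gene's longest GENCODE transcript, available for 93.3% of genes tested, and 99.4% of those called.

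Named genes were the 12 largest contrasts in each direction among genes past the threshold with a mean of at least 1 CPM and Model outside the range of the other 8 libraries, the 6 per direction with the smallest Treatment minus Control among those with a contrast of at least 0.4 and a mean of at least 5 CPM, up to 4 members of each list by p, and a set of stress and depression genes, leaving out genes named by number. Other members were named to complete a list's count. The genes of the chromosome 12 cluster, the cerebellar genes and the promoters of Hsp90b1 and Hspd1 were chosen after their values were seen. The comparison, its members and the lists were chosen with earlier results of these data known. Same-numbered libraries did not deviate together (correlations -0.04 to 0.11), so replicate numbers were not used as pairs. One gene that the rule for named genes picked is not reported here.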

Additional observations from a re-analysis of the deposited data

Results flagged for a closer look

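A library was looked at again where its gap to the nearest of its group took up more of the group's range than Dixon's 95% critical value for 4 samples allows. This was done for the 44 genes given by library in the text and for the mean scores of the 37 lists, 243 groups in all. There were 16 such values, and chance alone gives about 1 in 20 groups. Genes and the lists that hold them were both examined, so the groups are not independent. The values are gathered below by topic only.

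Chaperones account for 4 of them. Hsp90b1 was 441 CPM in Model replicate 4, beside 375 to 386 CPM in the other Model libraries, and the heat shock score of that library was 0.27, beside 0.08 to 0.09. Sdf2l1 was 12.3 CPM in Treatment replicate 3, beside 8.57 to 8.97 CPM in the other Treatment libraries, and the ER chaperone score of that library was 0.15, beside -0.02 to -0.01. The interferon score of Model replicate 4 was also high, at 0.15 beside -0.21 to -0.17.

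Model replicate 3 stood apart in markers of neurons. Its dentate granule cell score was 0.25, beside 0.06 to 0.08 in the other Model libraries, its glutamatergic synapse score was 0.11, beside 0.03, and its neocortical score was -0.43, beside -0.09 to -0.03. Control replicate 3 had the highest Trpc6 (20.5 CPM, beside 16.1 to 16.5 CPM) and Doc2b (101 CPM, beside 89.2 to 91.1 CPM) of its group, both still below every Model library. Thalamic and habenular scores were high in Control replicate 1 (1.45, beside -0.39 to -0.14) and in Model replicate 2 (0.76, beside -0.52 to -0.48).

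Htr1a was 38.3 CPM in Treatment replicate 3, beside 35.02 to 35.4 CPM, and Lss was 31.9 CPM in the same library, beside 37.9 to 38.97 CPM. Fosb was 4.18 CPM in Control replicate 1, beside 5.68 to 5.90 CPM. The splicing factor score of Control replicate 2 was -0.043, beside 0.03 to 0.05.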

How the results depend on the processing

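Counts below are genes past an adjusted p of 0.05, as all, higher, lower, and those with Model outside the range of the other 8 libraries, beside 331, 158, 173 and 218, and then the number in which Treatment minus Control also passed, beside 2. Counts stayed within 1.5 times, except where given, with RLE scaling, limma-voom (304 genes) and a filter keeping genes with 1 CPM in 8 or more libraries. DESeq2 gave 1054, 630, 424 and 395, with 51 for Treatment minus Control, and shared 321 genes with the 331. Without a filter the counts were 1111, 557 and 554, with 212 for Treatment minus Control. On log2 FPKM they were 65, 13, 52 and 60 with a pseudocount of 1, 56, 11, 45 and 52 with a pseudocount of 0.1, and 11, 4, 7 and 11 without a filter, where Treatment minus Control passed in 0. Treating Control and Treatment as 1 group of 8 gave 198, 86 and 112. Without both libraries whose names come from another number series, Treatment replicates 2 and 3, the counts were 209 and 89 higher, with 11 for Treatment minus Control. A choroid plexus covariate gave 74, 18, 56 and 46, with 0 for Treatment minus Control, and the neocortical covariate, chosen after seeing the data, gave 7, 4, 3 and 4, with 1. A fold threshold of 1.2 gave 1, 0, 1 and 1, with 0. Removing GC and length trends, also chosen after seeing the data, gave 510 and 305 higher, a share of 59.8% higher, with 9 for Treatment minus Control. With the replicate number as a block, 380 genes passed, 272 of them among the 331, and Treatment minus Control passed in 17. The cause of these moves was not tested.

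With each library left out in turn, the ranges were 6 to 494, 2 to 260, 4 to 235 and 6 to 326, and 0 to 6 for Treatment minus Control. The count of 331 moved by over 1.5 times without Control replicate 1 (163), 2 (74) or 4 (146), Treatment replicate 2 (154) or 4 (220), or Model replicates 2, 3 or 4. Of the values of named genes over all settings, 1765 kept their side of the threshold and direction, 771 no longer passed, 63 newly passed and 16 changed sign. The sign changes were in genes that did not pass: Gfap (0.014 without Treatment replicates 2 and 3 together, 0.038 with GC and length trends removed, -0.086 to 0.032 with single libraries left out), Tsc22d3 (0.075 with the neocortical covariate, -0.099 to 0.044 with single libraries left out), Bdnf (-0.025 with the choroid covariate, -0.031 to 0.19 with single libraries left out), Vgf (0.063 with GC and length trends removed, -0.14 to 0.033 with single libraries left out), Ntrk2 (-0.016) and Nr3c1 (-0.013), both with GC and length trends removed, Nr3c2 (-0.0050 with the neocortical covariate) and Fos (-0.13 to 0.36 with single libraries left out). Cbfa2t3 and Rsrp1 failed to pass only under the fold threshold (adjusted p = 0.081 and 0.328). Of list medians, 989 moved by less than the spread between libraries and 10 by more. Depth limits genes of a few CPM, such as Lncppara and Myo5c.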

Other observations

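Genes outside the lists gave further values in the Model contrast, all named after the values were seen. Nrbp2, a pseudokinase, was 167, 169, 161 and 159.6 CPM in the Control libraries, 133, 131, 120.2 and 125 in Model and 161, 169.5, 168 and 161 in Treatment. The Model libraries lay far below all others, Treatment minus Control was 0.00, and the contrast was -0.37 ± 0.04 (SE, adjusted p = 0.00237). It passed without any of Model replicates 2, 3 and 4. Cd46, a regulator of complement, was 24.7, 20.8, 23.3 and 24.04 CPM in the Control libraries, 17.8, 16.5, 16.2 and 16.6 in Model and 28.5, 22.3, 24.1 and 23.8 in Treatment, and Stxbp2, a partner of syntaxins in exocytosis, was 30.6, 35.7, 34.2 and 35.9 CPM in the Control libraries, 26.2, 24.7, 22.5 and 25.4 in Model and 30.7, 31.5, 31.4 and 30.3 in Treatment. Both were below every other library in Model, with contrasts of -0.51 ± 0.07 (SE, adjusted p = 0.00923) and -0.40 ± 0.06 (SE, adjusted p = 0.00923). Snrnp70, a protein of the U1 small nuclear ribonucleoprotein, was 399, 414, 389 and 422 CPM in the Control libraries, 359, 330.3, 323 and 304 in Model and 422, 432, 367 and 389 in Treatment, with a contrast of -0.30 ± 0.06 (SE, adjusted p = 0.022). Leng8 (-0.41, adjusted p = 0.013), Clasrp (-0.35, adjusted p = 0.027), Fnbp4 (-0.30, adjusted p = 0.040) and Wsb1 (-0.26, adjusted p = 0.036) also had Model below all 8 others. The growth factor Vegfa (-0.26, adjusted p = 0.027) and the receptor ligand Gas6 (-0.31, adjusted p = 0.033) did so too.

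Among higher genes, Emx2, a homeobox factor needed for hippocampal growth, was 14.8, 15.9, 17.4 and 16.2 CPM in the Control libraries, 21.97, 20.8, 21.1 and 18.7 in Model and 15.6, 15.2, 16.7 and 17.1 in Treatment, with a contrast of 0.36 ± 0.07 (SE, adjusted p = 0.022). Neurod2, a factor of excitatory neurons, was 140.1, 123, 144 and 159 CPM in the Control libraries, 162, 183, 187 and 183 in Model and 139.9, 144, 159 and 149 in Treatment, with a contrast of 0.30 ± 0.06 (SE, adjusted p = 0.029). Lman2l, a lectin of the route from the ER to the Golgi, was 43.5, 49.3, 53.6 and 48.97 CPM in the Control libraries, 61.2, 62.9, 63.3 and 58.6 in Model and 53.8, 48.1, 49.8 and 46.7 in Treatment, with a contrast of 0.32 ± 0.06 (SE, adjusted p = 0.020), and Rngtt, the capping enzyme of messenger RNA, was 24.9, 24.1, 25.4 and 24.9 CPM in the Control libraries, 32.2, 30.2, 30.5 and 32.8 in Model and 25.5, 25.1, 27.1 and 25.2 in Treatment, with a contrast of 0.31 ± 0.05 (SE, adjusted p = 0.012). In these 4 genes the lowest Model library was above the highest of the other 8.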
